A study of Homo sapiens with 18 samples.

Results

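The 9 genes of MHC class I presentation and the immunoproteasome described here were HLA-B, HLA-C, HLA-E, B2M, TAP1, TAP2, NLRC5, PSMB8 and PSMB9. They were taken by symbol from a count table of 56609 gene symbols, and all 9 were found in it and had enough reads to be tested. RNA of the EBV-positive CLL cell lines HG3, MEC2 and PCL12 was sequenced without stimulation and after 4 h with 2.5 µg/ml ODN-2006, a synthetic oligonucleotide with unmethylated CpG motifs that activates the endosomal receptor TLR9. Each of the 6 groups held 3 libraries, 18 in all, and a replicate number joined 1 stimulated and 1 unstimulated sample of a line. By the paper's description, only MEC2 of the 3 lines has mutated IGHV genes. The labels name no engineered change in any line, the same unstimulated libraries served as controls in several comparisons, and each line stands for 1 source of cells, so that differences between lines are differences between 3 cell lines and not between classes of CLL.

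MHC class I molecules carry peptides of the cell's own proteins to the surface, where CD8 T cells and NK cells read them. HLA-B and HLA-C are classical heavy chains and HLA-E is a non-classical one that is read by NK cell receptors, while B2M is the light chain that all of them need. Peptides are cut by the proteasome, in which PSMB8 and PSMB9 replace the constitutive subunits PSMB5 and PSMB6 to form the immunoproteasome, and they enter the endoplasmic reticulum through the transporter made of TAP1 and TAP2. NLRC5 is the transactivator that acts with RFX and NF-Y proteins at the promoters of these genes, which also answer to interferon and NF-κB, and TLR9 signals to NF-κB.

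RefSeq promoters (GRCh38.p14) were at hand for 7 of the 9 genes. Shown are the 250 bases before the start of HLA-B (chr6:31357180-31357429, minus strand), HLA-C (chr6:31272093-31272342, minus strand), B2M (chr15:44711267-44711516, plus strand), TAP1 (chr6:32853705-32853954, minus strand, the outer of its starts) and PSMB9 (chr6:32853942-32854191, plus strand), the first 3 because heavy and light chains were read against each other below, and the last pair because these neighbours face each other and differed between the lines in unlike ways. Each runs 5′ to 3′ along its own gene. Capitals mark every match on either strand to GAAA, any 2 bases and GAAA (the core of an interferon-stimulated response element, ISRE), to GGG, any 2 bases, TT, any base and CC (a κB site), to TGACG (the core of the X2 box) and to ATTGG (the Y box bound by NF-Y).
HLA-B: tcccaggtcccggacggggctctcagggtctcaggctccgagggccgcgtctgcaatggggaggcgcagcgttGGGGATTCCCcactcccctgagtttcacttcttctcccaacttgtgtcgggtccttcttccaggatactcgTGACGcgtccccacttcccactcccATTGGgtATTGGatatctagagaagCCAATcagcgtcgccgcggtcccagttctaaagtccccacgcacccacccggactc
HLA-C: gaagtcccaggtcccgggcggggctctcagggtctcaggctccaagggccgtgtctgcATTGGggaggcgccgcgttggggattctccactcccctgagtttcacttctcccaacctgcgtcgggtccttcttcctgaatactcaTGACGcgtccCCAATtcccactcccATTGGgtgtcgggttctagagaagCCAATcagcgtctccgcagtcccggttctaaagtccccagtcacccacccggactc
B2M: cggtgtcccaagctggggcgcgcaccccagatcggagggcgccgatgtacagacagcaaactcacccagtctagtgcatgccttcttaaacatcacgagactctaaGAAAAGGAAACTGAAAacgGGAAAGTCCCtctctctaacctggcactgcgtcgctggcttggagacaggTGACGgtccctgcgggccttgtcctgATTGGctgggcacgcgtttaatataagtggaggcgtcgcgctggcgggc
TAP1: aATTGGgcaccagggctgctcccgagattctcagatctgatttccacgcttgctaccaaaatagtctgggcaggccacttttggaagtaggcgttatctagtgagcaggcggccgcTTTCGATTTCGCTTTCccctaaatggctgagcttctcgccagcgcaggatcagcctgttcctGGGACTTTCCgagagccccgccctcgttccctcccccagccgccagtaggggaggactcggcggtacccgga
PSMB9: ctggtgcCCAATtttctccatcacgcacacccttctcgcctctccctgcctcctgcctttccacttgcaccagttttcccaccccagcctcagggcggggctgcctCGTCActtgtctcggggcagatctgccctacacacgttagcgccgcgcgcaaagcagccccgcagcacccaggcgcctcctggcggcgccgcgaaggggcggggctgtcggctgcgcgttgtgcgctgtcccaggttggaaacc

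The HLA-B and HLA-C promoters were the same at 226 of 254 aligned columns (89%), and both held TGACG, at -106 and -105 from the start, and several ATTGG matches (3 and 4), whereas only HLA-B of the pair had the κB letters, at -177. The B2M promoter held 2 overlapping ISRE matches and 1 match to each of the other motifs. The outer TAP1 start lay 488 bases from the PSMB9 start on the opposite strand, and the ends of both windows overlapped, so that the ATTGG match at -249 of TAP1 and that at -243 of PSMB9 were the same bases. TAP1 had 2 overlapping ISRE matches and a κB match at -72, and PSMB9 had neither in its window but had TGACG at -144. Of the promoters not printed, TAP2 held ISRE letters at -58 and TGACG at -35, and PSMB8 held TGACG at -69. Over 35116 RefSeq promoter windows of the same length, 3.02% held the ISRE letters, 5.07% the κB letters, 21.2% TGACG and 32% ATTGG. A match describes the letters and is not a site shown to be bound.

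Total counts lay between 20382943 and 67308932 per library (median 34187429.5), and the counting error of the members is small at this depth, since 3 counts correspond to between 0.0429 and 0.155 CPM. The B cell markers MS4A1, CD79A, CD79B and PAX5 ranged from 64.5 to 1842 CPM in every library, and none of the markers of T cells, NK cells or monocytes exceeded 3.35 CPM, with CD3D at no more than 1 count in any library. Of the 3 fibroblast markers, COL1A2 had at most 0.462 CPM, PDGFRB at most 5.54 CPM and COL1A1 5.13 to 81.5 CPM. Their sum was 32.1 to 82.1 CPM in unstimulated HG3, 11.9 to 12.2 CPM in MEC2 and 9.75 to 18.8 CPM in PCL12. The sum was thus highest in HG3, while PDGFRB alone was highest in PCL12, without overlap with the other lines in either condition. After CpG the sum was 27.1 to 46.4 CPM in HG3, 18.2 to 39.4 CPM in MEC2 and 11.6 to 15.1 CPM in PCL12, higher than before in MEC2 without overlap and then overlapping HG3. Its part in the differences between lines and in the CpG ratios was not tested. Mitochondrial transcripts made up 20.2% of unstimulated HG3 replicate 2 and 19.7% of MEC2 replicate 2 after CpG (the mitochondria-rich libraries), and 2.82% to 9.28% of the others. PCL12 replicates 2 and 3 differed from replicate 1 in transcripts present in MEC2. In 45 genes selected as present in MEC2 and nearly absent from PCL12 replicate 1, both conditions of replicates 2 and 3 stood at a median of 29.0% to 31.3% of the MEC2 level. Replicate 1 stood at 2.26% to 2.36%, but it was part of the selection, so its gap from the others is partly built in. The level of these genes in HG3 was not read. The called differences between PCL12 and another line are therefore also given without replicates 2 and 3 of PCL12, and where PCL12 values are listed, replicate 1 is the first. Nothing in the labels says whether replicates came from separate cultures, so p values measure only the spread between these samples.

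**Figure D1:**
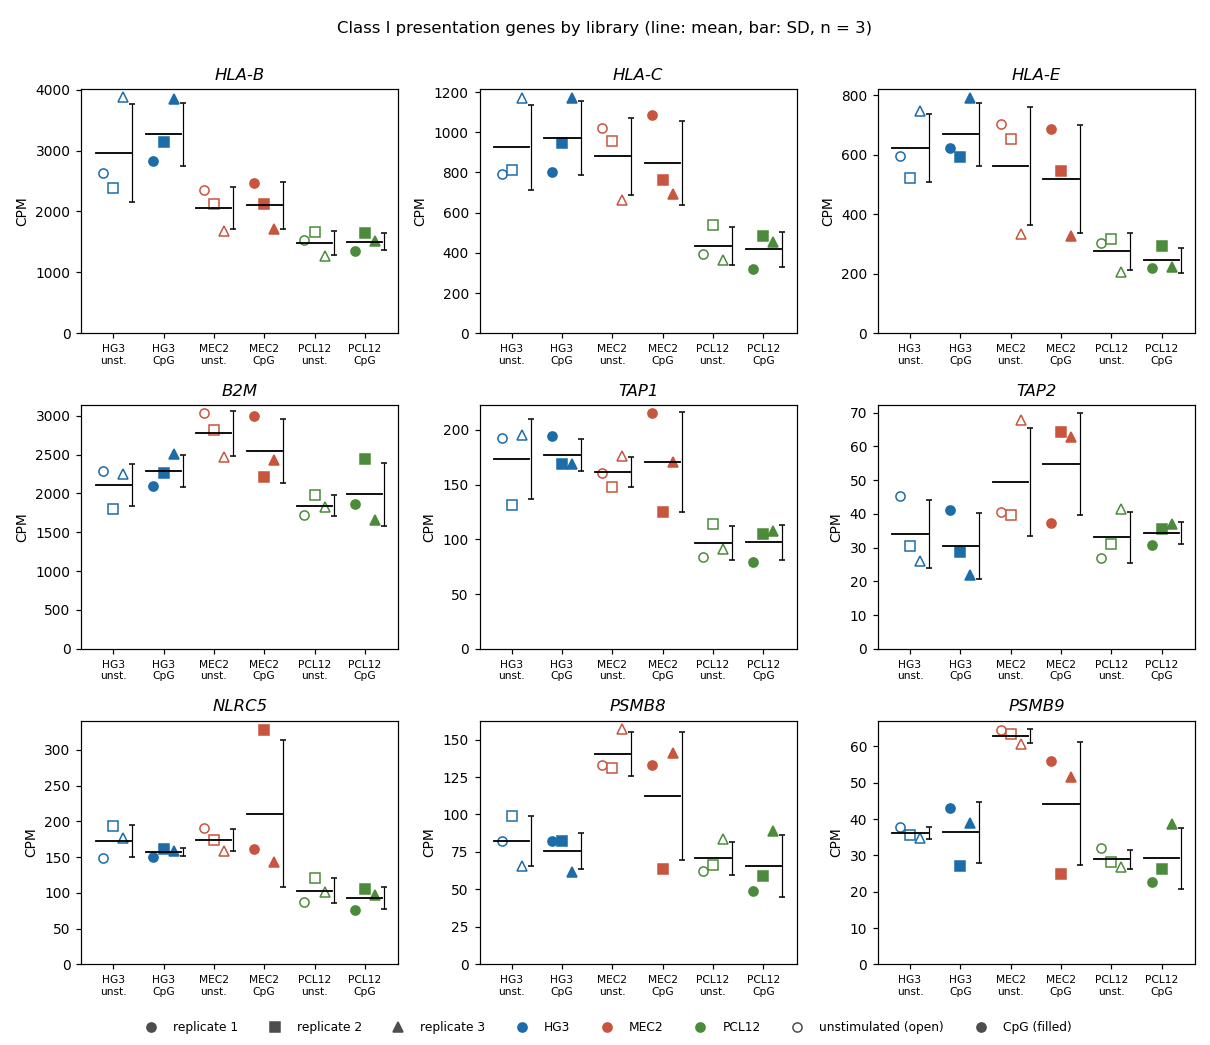
CPM (vertical axes, each starting at 0) of the 9 genes in the 18 libraries, by line and condition (horizontal axes); symbols mark replicates 1 to 3, open points are unstimulated and filled points CpG-stimulated, lines are means and bars SDs of 3 libraries. HLA-B, HLA-C and HLA-E stand lowest in PCL12, and the open and filled points of a line overlap for every gene and line except PSMB9 in MEC2. MEC2 replicate 2 stands apart, with its filled point far below the open one for PSMB8 and PSMB9 and far above it for NLRC5.

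In unstimulated cells, the heavy chains were lower in PCL12 than in HG3, by a factor of 1.99 for HLA-B, 2.13 for HLA-C and 2.26 for HLA-E, while B2M did not pass the test. TAP1 was also lower, by a factor of 1.80. In all, 4 of the 9 genes were called lower in PCL12 than in HG3 and none higher (edgeR adjusted p under 0.05 over the 31872 genes tested), where 4.57% of all tested genes were called lower, and 6 of the 9 had no overlap between the libraries in that direction, against 9.36% of all genes. All 9 fitted differences were negative, with a median of -0.74 on the log2 scale beside a median of 0 over all genes tested. Of the 5415 tested genes with a mean CPM at least that of the lowest of the 9, 5.93% were called lower. The calls rested on single libraries: without unstimulated PCL12 replicate 3 none of the 9 was called, without unstimulated HG3 replicate 3 there was 1 (HLA-E), and without HG3 replicate 1 or PCL12 replicate 1 there were 3 (TAP1 lost). Since these are bulk samples, fewer cells that express a gene and less RNA per cell cannot be told apart.

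HLA-B (chr6:31353872-31367067, minus strand; GENCODE 44 on GRCh38, as are the positions that follow) measured 2629.9, 2379 and 3872 CPM in unstimulated HG3 replicates 1, 2 and 3. The MEC2 libraries had 2352, 2130.2 and 1683 CPM and the PCL12 libraries 1528, 1658 and 1270.4 CPM. The 3 lines did not overlap, in the order HG3, MEC2, PCL12, with means of 2960.4 ± 799 CPM, 2055 ± 341 CPM and 1485 ± 197 CPM (SD, n = 3 each). The step from HG3 to PCL12 passed the test (log2 difference of -0.99, SE 0.25, edgeR adjusted p = 0.01). The step from HG3 to MEC2 (-0.53, adjusted p = 0.22) and that from MEC2 to PCL12 (-0.47, adjusted p = 0.496) did not.

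HLA-C (chr6:31268749-31272130, minus strand) measured 793, 811 and 1170.5 CPM in HG3, 1024, 958 and 664 CPM in MEC2 and 397, 540.0 and 364 CPM in PCL12. HG3 and MEC2 overlapped, and every PCL12 library was below every library of both other lines. PCL12 was lower than HG3 (log2 difference of -1.09, SE 0.27, edgeR adjusted p = 0.00764) and lower than MEC2 (log2 difference of -1.02, SE 0.27, edgeR adjusted p = 0.0406). HLA-C was one of only 2 genes of the 9 called lower in PCL12 than in MEC2, a comparison in which 0.524% of all tested genes were called lower. In that comparison 8 of the 9 genes did not overlap between the lines, TAP2 being the exception, against 7.6% of all genes, and the median fitted difference of the 9 was -0.75 beside 0 over all genes. The 2 calls rested on single libraries. The call for PSMB9 was lost in each of the 6 fits that left out 1 library of either line (adjusted p of 0.0601 to 0.111). That for HLA-C was kept without MEC2 replicate 3 (adjusted p = 0.0288) or PCL12 replicate 2 (0.038), and lost without MEC2 replicate 1 (0.195) or 2 (0.175) or PCL12 replicate 1 (0.2) or 3 (0.157).

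HLA-E (chr6:30489509-30494194, plus strand) measured 595, 523 and 747 CPM in HG3, 702, 652 and 333 CPM in MEC2 and 304, 317 and 205 CPM in PCL12. Replicate 3 of MEC2 stood well below the other MEC2 libraries, and PCL12 was below every other unstimulated library. The difference from HG3 passed the test (log2 difference of -1.18, SE 0.30, edgeR adjusted p = 0.00933), and that from MEC2 did not at the adjusted threshold (-1.03, adjusted p = 0.0705). It passed without MEC2 replicate 3 (adjusted p = 0.0183), with no filter on low counts (0.0133) and with DESeq2 (0.0197).

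The reads of these heavy chains are uncertain in one respect. HLA-B, HLA-C, HLA-E, HLA-F, HLA-G and several pseudogenes are close copies of each other, and the alleles of a line, which were not typed here, may differ from the reference. How reads with several matches were counted is not given in the sources used here. When the reads of these 5 genes and the pseudogenes HLA-H, HLA-J, HLA-K, HLA-L and HLA-V (10 in all) were added into 1 feature, a step chosen after seeing the data, HG3 measured 4310.1, 4017 and 6132 CPM and PCL12 2349, 2712 and 1958 CPM, a difference that passed the test (log2 difference of -1.04, SE 0.26, edgeR adjusted p = 0.00942), while PCL12 against MEC2 did not pass (log2 difference of -0.69, SE 0.26, edgeR adjusted p = 0.252). Without PCL12 replicates 2 and 3 the sum was not called against HG3 either (-1.05, adjusted p = 0.298). The call for HLA-C between PCL12 and MEC2 did not extend to the sum, which holds more reads of HLA-B than of HLA-C. HLA-B itself was not called between these lines, so the sum cannot decide whether shared reads bear on the HLA-C call.

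B2M (chr15:44711358-44718851, plus strand) measured 2292, 1801 and 2243 CPM in HG3, 3039, 2819 and 2467 CPM in MEC2 and 1723, 1981 and 1823 CPM in PCL12. All MEC2 libraries were above all others, whereas HG3 and PCL12 overlapped. No difference passed the edgeR test. PCL12 against MEC2 gave -0.59 (95% interval -1.07 to -0.11, adjusted p = 0.297), which was called with limma-voom (adjusted p = 0.0281) and DESeq2 (0.0438). PCL12 against HG3 gave -0.20 (95% interval -0.68 to 0.28, adjusted p = 0.677), which does not show that the lines were alike. The ratio of HLA-B to B2M counts within each library was 1.15, 1.32 and 1.73 for HG3, 0.774, 0.756 and 0.682 for MEC2 and 0.887, 0.837 and 0.697 for PCL12. Every HG3 library had a higher ratio than every MEC2 and PCL12 library, and MEC2 and PCL12 overlapped. The mean ratio (on the log2 scale) was 1.72-fold lower in PCL12 than in HG3 and 1.87-fold lower in MEC2 (exact permutation test, two-sided, p = 0.1 for each, the smallest that 3 against 3 libraries allow). For HLA-C the ratio to B2M was 0.346, 0.45 and 0.522 for HG3, 0.337, 0.34 and 0.269 for MEC2 and 0.23, 0.273 and 0.2 for PCL12. The ratio of HLA-E to B2M was 0.26, 0.29 and 0.333 for HG3, 0.231, 0.231 and 0.135 for MEC2 and 0.177, 0.16 and 0.112 for PCL12. For all 3 heavy chains, every unstimulated HG3 library had a higher ratio than every other unstimulated library, by a narrow margin for HLA-C in MEC2. These ratios, chosen after seeing the data, use counts that are not divided by gene length, so that only their differences between lines can be read.

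TAP1 (chr6:32845209-32853816, minus strand) measured 193, 131 and 196 CPM in HG3, 160.4, 148 and 176 CPM in MEC2 and 84.3, 114 and 90.8 CPM in PCL12. HG3 and MEC2 overlapped and all PCL12 libraries were below them. PCL12 was lower than HG3 (log2 difference of -0.85, SE 0.24, edgeR adjusted p = 0.0231), and the difference from MEC2 did not pass (-0.75, adjusted p = 0.136), though it did with DESeq2 (adjusted p = 0.0307). Against HG3, TAP1 stayed called without HG3 replicate 2 or PCL12 replicate 2, and lost its call without HG3 replicate 1 (adjusted p = 0.0839) or 3 (0.0857) or PCL12 replicate 1 (0.106) or 3 (0.0941), and with library totals (0.0958). TAP2 (chr6:32821833-32838739, minus strand), its partner in the transporter, measured 45.2, 30.6 and 26.0 CPM in HG3, 40.7, 39.8 and 68.0 CPM in MEC2 and 26.8, 31.0 and 41.4 CPM in PCL12. The lines overlapped throughout, and PCL12 against HG3 gave -0.036 (95% interval -0.64 to 0.57, adjusted p = 1). The ratio of TAP1 to TAP2 counts was 4.27, 4.28 and 7.53 in HG3 and 3.14, 3.67 and 2.19 in PCL12, without overlap (exact permutation p = 0.1, the smallest possible).

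NLRC5 (chr16:56989485-57083531, plus strand), the transactivator of this gene set, measured 149, 193 and 176 CPM in HG3, 190.1, 173 and 158 CPM in MEC2 and 86.7, 121 and 101 CPM in PCL12. The PCL12 libraries were all below the others, and HG3 and MEC2 overlapped. The difference between PCL12 and HG3 did not pass the adjusted threshold (-0.74, adjusted p = 0.0801), and it did in 5 of 11 other settings: with the replicate number as a block (-0.75, adjusted p = 0.0426), with DESeq2 (0.0318), with the stricter filter filterByExpr (0.0483), with only the lines compared (0.0369) and without the mitochondria-rich libraries (0.0273). With any single unstimulated library of these lines left out it did not pass. Against MEC2 the value was -0.75, adjusted p = 0.194.

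PSMB8 and PSMB9 showed another order, with MEC2 highest, although neither was called between MEC2 and HG3. PSMB8 (chr6:32840717-32844679, minus strand) measured 82.4, 99.0 and 65.8 CPM in HG3, 133, 131 and 157 CPM in MEC2 and 62.6, 66.2 and 83.4 CPM in PCL12. PSMB9 (chr6:32844136-32859851, plus strand) measured 37.9, 35.7 and 34.7 CPM in HG3, 64.6, 63.4 and 60.6 CPM in MEC2 and 31.9, 28.1 and 26.9 CPM in PCL12. For both genes every MEC2 library was above every HG3 and PCL12 library, and for PSMB9 HG3 was also above PCL12 in every library. PSMB9 was lower in PCL12 than in MEC2 (log2 difference of -1.12, SE 0.28, edgeR adjusted p = 0.0295, 2.17-fold), and PSMB8 did not pass (-0.99, adjusted p = 0.0693), though it did with DESeq2 (adjusted p = 0.0263) and with no filter (0.0215).

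Between MEC2 and HG3 none of the 9 genes was called by edgeR, where 9.78% of all tested genes were. At an unadjusted P under 0.05 there were 3 (PSMB8 and PSMB9 higher, HLA-B lower), against 21.7% of all genes, DESeq2 called 1 and limma-voom none. PSMB9 gave 0.80, adjusted p = 0.0704 and PSMB8 0.77, adjusted p = 0.0891. PSMB9 passed with the replicate number as a block (adjusted p = 0.0487), and without the mitochondria-rich libraries 3 genes passed: PSMB8 (0.92, adjusted p = 0.0131), PSMB9 (0.79, adjusted p = 0.0378) and HLA-B (-0.66, adjusted p = 0.0474). Without overlap, 3 genes were higher in MEC2 (B2M, PSMB8 and PSMB9) and 1 lower (HLA-B), against 11.6% and 10.6% of all genes.

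The constitutive subunits were read beside them. PSMB6, which PSMB9 replaces, was lower in MEC2 than in HG3 (log2 difference of -1.04, SE 0.26, edgeR adjusted p = 0.00881), and PSMB5, which PSMB8 replaces, was not called (-0.31, adjusted p = 0.564). The ratio of PSMB9 to PSMB6 counts was 2.03, 2.07 and 1.32 in MEC2, 0.543, 0.4 and 0.54 in HG3 and 0.517, 0.428 and 0.381 in PCL12. The lowest MEC2 library was above every library of the other lines, and the mean was 3.61-fold higher than in HG3 and 4.04-fold higher than in PCL12. The ratio of PSMB8 to PSMB5 counts was 2.70, 3.12 and 2.07 in MEC2, 1.00, 1.78 and 0.961 in HG3 and 0.905, 1.03 and 1.06 in PCL12, again with MEC2 above all others, by 2.17-fold against HG3 and 2.60-fold against PCL12 (exact permutation p = 0.1 for each of these comparisons, the smallest possible). The third pair had a different order: the ratio of PSMB10 to PSMB7 counts was 0.501, 0.361 and 0.292 in PCL12, 0.308, 0.218 and 0.232 in MEC2 and 0.241, 0.23 and 0.154 in HG3, with PCL12 above HG3 and overlapping MEC2.

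**Figure D2:**
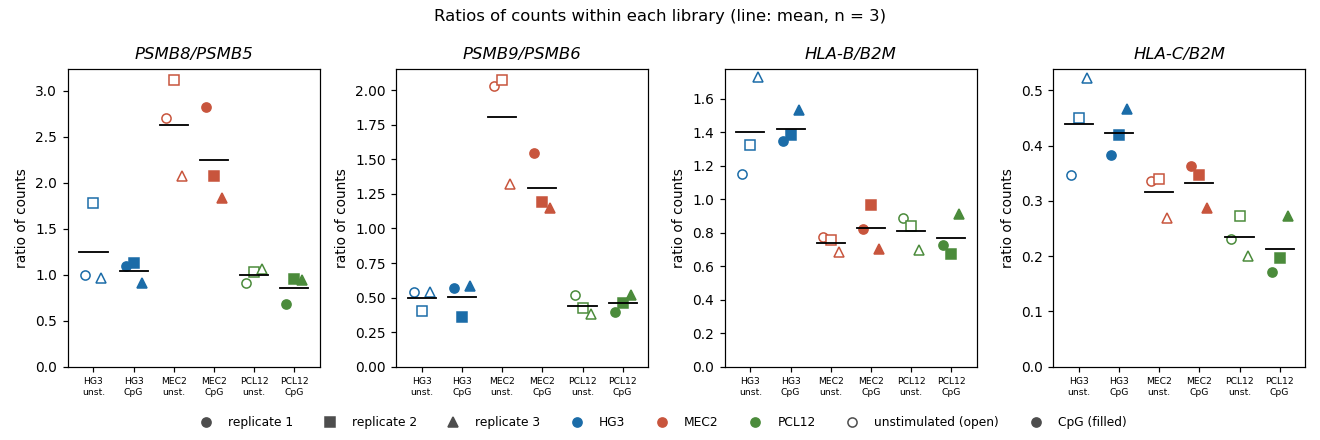
Ratio of the counts of 2 genes within each library (vertical axes, from 0) by line and condition (horizontal axes); symbols mark replicates, open points are unstimulated, filled points CpG-stimulated and lines means of 3 libraries. PSMB8/PSMB5 and PSMB9/PSMB6 are highest in MEC2 in both conditions, and HLA-B/B2M and HLA-C/B2M are highest in HG3.

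Several of these genes overlap on chromosome 6. TAP1 lies wholly within the annotated span of PSMB9 on the opposite strand (8608 bases), and the non-coding PSMB8-AS1 overlaps PSMB8 (602 bases), PSMB9 (2365 bases) and TAP1 (1292 bases). The libraries were stranded, but whether the counting used strand is not given in the sources used here. Without strand, reads of overlapping genes cannot be told apart.

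The differences between lines were then read without PCL12 replicates 2 and 3, the libraries with MEC2 transcripts, which leaves 1 PCL12 library whose spread is taken from the other groups. Against HG3, the median of the 9 fitted differences was -0.94 in place of -0.74, and none was called: HLA-C gave -1.21, adjusted p = 0.161, TAP1 -1.02, adjusted p = 0.21, HLA-E -1.01, adjusted p = 0.338 and HLA-B -0.94, adjusted p = 0.348. Against MEC2, the median was -0.91 in place of -0.75, HLA-C gave -1.12, adjusted p = 0.314 and PSMB9 -0.95, adjusted p = 0.459. The sizes thus stayed or grew for the called genes except for HLA-E and HLA-B against HG3 and PSMB9 against MEC2, and the calls were lost with 1 library left. Of the class I pseudogenes, HLA-J, HLA-L and HLA-V were higher in PCL12 replicates 2 and 3 than in replicate 1 in both conditions. In unstimulated PCL12, HLA-L measured 2.73, 9.70 and 9.54 CPM in replicates 1, 2 and 3, against 34.3, 23.0 and 22.9 CPM in MEC2. HLA-V measured 0.289, 1.85 and 1.42 CPM in PCL12 and 7.74, 6.90 and 4.56 CPM in MEC2, and HG3 had at most 2 counts in an unstimulated library.

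**Figure D3:**
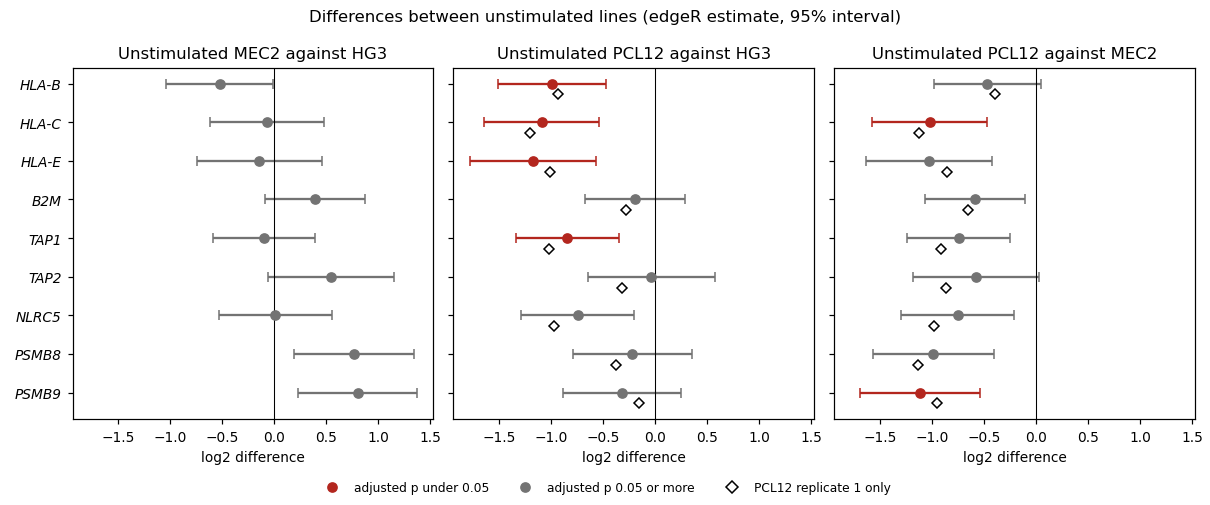
Log2 difference between unstimulated lines (horizontal axes) for the 9 genes (vertical axis), as edgeR estimates with 95% intervals; red points have an adjusted p under 0.05, and open diamonds give the estimate from PCL12 replicate 1 alone. All PCL12 estimates lie left of 0, and B2M and TAP2 lie nearer to 0 than HLA-B, HLA-C, HLA-E and TAP1 against HG3.

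The same comparisons were made between CpG-stimulated lines, in libraries other than those above but of the same replicate series. Between PCL12 and HG3, HLA-B (-1.12, adjusted p = 0.00381), HLA-C (-1.22, adjusted p = 0.003), HLA-E (-1.44, adjusted p = 0.00148) and TAP1 (-0.87, adjusted p = 0.0205) were called lower in PCL12, 4 of 9 against 4.16% of all genes, and 5 of 9 did not overlap, against 12.9%. Without PCL12 replicates 2 and 3, 1 of these was called (HLA-C, -1.59, adjusted p = 0.0442). With 1 library left out, TAP1 alone lost its call, without HG3 replicate 1 (adjusted p = 0.0849) or PCL12 replicate 1 (0.12), and it also lost it with library totals (0.064). NLRC5 was not called (-0.76, adjusted p = 0.0808) but passed in 5 other settings: DESeq2, limma-voom, filterByExpr, only the lines compared and the replicate block (adjusted p of 0.0289 to 0.046). Between PCL12 and MEC2, HLA-C (-1.02, adjusted p = 0.0431) and NLRC5 (-1.18, adjusted p = 0.0137) were called lower, 2 of 9 against 0.609% of all genes, and none without PCL12 replicates 2 and 3. HLA-C stayed called without MEC2 replicate 2 or 3, and lost its call without MEC2 replicate 1 (adjusted p = 0.248) or PCL12 replicate 1 (0.315), 2 (0.0696) or 3 (0.0884). NLRC5 lost its call without MEC2 replicate 2 (0.147) or PCL12 replicate 1 (0.14). HLA-E was not called (-1.08, adjusted p = 0.055) but passed in 6 of 11 other settings: DESeq2, limma-voom, RLE scaling, no filter, only the lines compared and the replicate block (adjusted p of 0.00653 to 0.0489). It also passed without MEC2 replicate 3 (0.0139), and TAP1 passed with DESeq2 (0.0129) and limma-voom (0.042). In this comparison 6 of 9 did not overlap, against 7.34%. PSMB9 was not called (-0.60, adjusted p = 0.403), and MEC2 CpG replicate 2, a mitochondria-rich library, had its lowest PSMB9 and PSMB8 and its highest NLRC5. Without the mitochondria-rich libraries, HLA-C, TAP1, PSMB8 and PSMB9 were called and NLRC5 was not (-0.71, adjusted p = 0.054). Between MEC2 and HG3 edgeR called none of the 9, where 9.13% of all genes were called, with 2 at an unadjusted P under 0.05, 1 higher and 1 lower (20.3% of all genes). DESeq2 called HLA-B lower (-0.64, adjusted p = 0.0331) and TAP2 higher (0.84, adjusted p = 0.0471), and limma-voom called HLA-B (adjusted p = 0.022). With edgeR, TAP2 passed without HG3 replicate 1 (1.12, adjusted p = 0.0394) or MEC2 replicate 1 (1.05, adjusted p = 0.0386), and PSMB8 without MEC2 replicate 2 (0.86, adjusted p = 0.0436). HLA-B was the 1 gene without overlap, lower in MEC2, against 12.2% of all genes.

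After 4 h with CpG, no gene of the 9 changed detectably in any line. edgeR called 0 of 9 in HG3, MEC2 and PCL12, and 0 had an unadjusted P under 0.05 in any of them. Over all tested genes the shares called were 0.00314%, 0.00314% and 0%, and 3.73%, 2.46% and 2.09% had an unadjusted P under 0.05, so that few genes of any kind were called at this depth and number of replicates. DESeq2 and limma-voom also called none of the 9. The fitted log2 ratios of the 9 lay between -0.15 and 0.14 for HG3, -0.51 and 0.28 for MEC2, and -0.16 and 0.11 for PCL12. Averaged over the lines, none was called or had an unadjusted P under 0.05 (of all genes, 0.00941% and 4.04%). The estimates of this mean response lay between -0.18 for PSMB8 (95% interval -0.51 to 0.15) and 0.064 for HLA-B (-0.23 to 0.36). PSMB9 gave -0.16 (-0.49 to 0.17), NLRC5 -0.0034 (-0.32 to 0.31), HLA-C -0.011 (-0.33 to 0.30) and HLA-E -0.058 (-0.40 to 0.29). B2M gave 0.034 (-0.24 to 0.31), TAP1 0.042 (-0.24 to 0.33) and TAP2 0.016 (-0.33 to 0.37). The response did not differ between any 2 lines at the adjusted threshold for any of the 9 (edgeR called 0 of 9 in each of the 3 comparisons, with none at an unadjusted P under 0.05; of all genes, 0%, 0.00314% and 0% were called and 4.1%, 4.16% and 3.23% had such a P).

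By replicate pair, HLA-B had log2 ratios of CpG over unstimulated CPM of 0.10, 0.40 and -0.013 in HG3 (replicates 1, 2 and 3). In MEC2 they were 0.072, -0.0043 and 0.022, and in PCL12 -0.17, -0.015 and 0.25. They spread to both sides of 0, 5 up and 4 down, as did those of HLA-C, HLA-E, B2M and TAP1, each with 4 or 5 up. After CpG, HLA-C measured 804, 947 and 1169 CPM in HG3, 1087, 765 and 695 CPM in MEC2 and 319, 482 and 453 CPM in PCL12. B2M measured 2099, 2264 and 2507 CPM in HG3, 2998, 2205 and 2429 CPM in MEC2 and 1869, 2444 and 1659.6 CPM in PCL12. TAP1 measured 194, 169 and 169 CPM in HG3, 216, 125 and 171 CPM in MEC2 and 78.9, 105 and 108 CPM in PCL12. For these 3 genes, each CpG group overlapped its unstimulated counterpart.

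PSMB8 had the lowest permutation p of the 9, with a mean pair ratio of -0.22 ± 0.34 (SD, n = 9 pairs, 6 down and 3 up; exact sign-flip permutation test over the 9 pairs, two-sided, p = 0.0469, smallest possible 0.00391; not adjusted, 9 genes tested). The pairs gave 0.0026, -0.27 and -0.094 for HG3, 0.0021, -1.04 and -0.16 for MEC2 and -0.35, -0.16 and 0.10 for PCL12, so that 1 pair, MEC2 replicate 2, stood apart. Without it the mean was -0.12 and the permutation p = 0.0938 over 8 pairs, and without HG3 replicate 2 as well, the other pair with a mitochondria-rich library, -0.095 and permutation p = 0.188 over 7 pairs. PSMB9 measured 56.1, 25.0 and 51.7 CPM in CpG-stimulated MEC2, against 64.6, 63.4 and 60.6 CPM without stimulation. It was the 1 gene of the 9 whose CpG and unstimulated libraries did not overlap in a line, lower after CpG, where 2.2% of all genes did so, and its adjusted p was 1. Replicate 2 again held the lowest value, and without that library the fitted log2 ratio in MEC2 was -0.22 in place of -0.51, and the mean over the lines -0.062 in place of -0.16. The fibroblast marker COL1A1 was higher after CpG in all 3 MEC2 pairs (log2 ratios of 0.77, 1.92 and 0.77), the most in replicate 2. The other fibroblast markers did not follow it: COL1A2 gave -0.71, -0.49 and 0, and PDGFRB -0.46, -0.62 and 0.088. The part of COL1A1 in the values of PSMB9 was not tested.

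NLRC5 measured 162, 328 and 142 CPM in CpG-stimulated MEC2, with replicate 2 far above the others, and 190.1, 173 and 158 CPM in unstimulated MEC2. In HG3 it measured 151, 162 and 158 CPM after CpG and in PCL12 75.4, 106 and 97.6 CPM. The pair ratio of MEC2 replicate 2 was 0.92 and the other 8 pairs gave -0.15 ± 0.093 (SD, 7 down and 1 up; exact sign-flip permutation p = 0.0156, not adjusted, 9 genes tested). Without HG3 replicate 2 as well, the 7 pairs left gave -0.14 ± 0.09 (SD, 6 down and 1 up; exact sign-flip permutation p = 0.0312, smallest possible 0.0156). These readings without 1 or both pairs were chosen after seeing the data, and over all 9 pairs the mean was -0.034 with p = 0.895 by the same permutation test. TAP2 gave -0.14, -0.095 and -0.24 for HG3, -0.12, 0.69 and -0.12 for MEC2 and 0.19, 0.19 and -0.16 for PCL12, with MEC2 replicate 2 again far above the others. Its mean over the 9 pairs was 0.022 (6 down and 3 up), and without that pair -0.062 (6 down and 2 up; exact sign-flip permutation p = 0.312). Over the 18 libraries the log2 CPM of NLRC5 went with the log2 mitochondrial share (Pearson r = 0.59, a description over libraries of 3 lines), and the part of that share in these values was not tested.

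**Figure D4:**
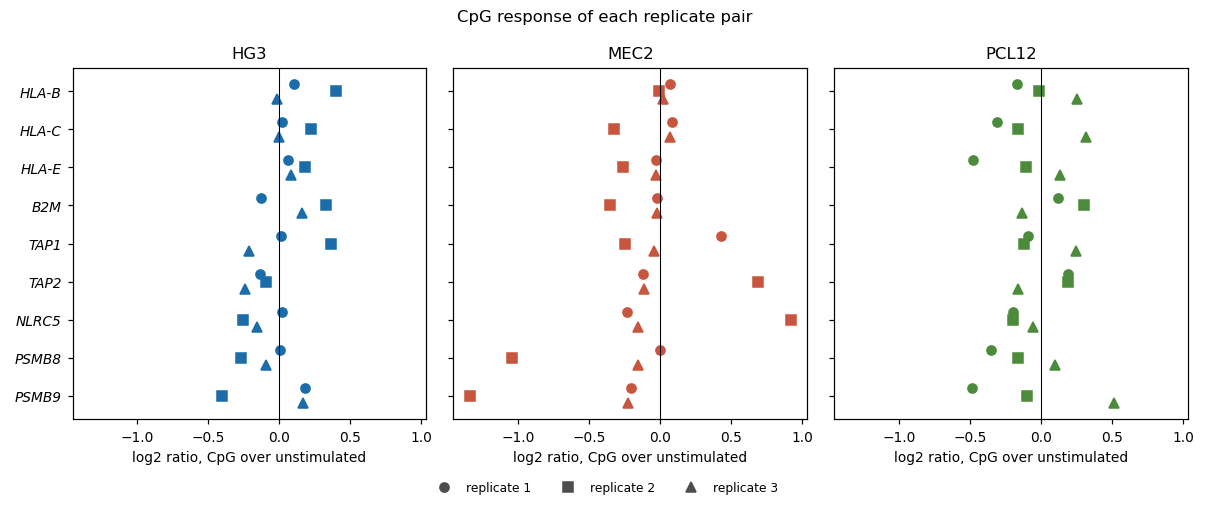
Log2 ratio of CpG over unstimulated CPM (horizontal axes) of each replicate pair for the 9 genes (vertical axis) in HG3, MEC2 and PCL12; symbols mark replicates 1 to 3 and the vertical line is no change. Most points lie near 0 on both sides, and the MEC2 replicate 2 pair stands apart for NLRC5 at 0.92, TAP2 at 0.69, PSMB8 at -1.04 and PSMB9 at -1.34.

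The spread between replicates of a line exceeded the response to CpG in most combinations of gene and line, and it was shared in part by both conditions. In 18 of 27 combinations (6 of 9 in HG3, 5 in MEC2 and 7 in PCL12), the mean of a replicate pair varied more between the highest and the lowest pair than CpG over unstimulated values did within any pair. In 19 of the 27, the same replicate number was highest in both conditions, and in 16 the same was lowest. For TAP1 the highest replicate differed between conditions in every line, and for B2M the lowest did. The combinations are not independent, since some genes varied together, and the shares over all genes were not counted. HLA-E in MEC2 is an example: replicates 1, 2 and 3 measured 702, 652 and 333 CPM unstimulated and 687, 545 and 326 CPM after CpG, so that replicate 3 was lowest in both, 2.11-fold below the highest in either condition. HLA-B in HG3 measured 2823, 3134 and 3838 CPM after CpG, and replicate 3 was the highest in both conditions. HLA-E measured 621, 593 and 790.0 CPM in CpG-stimulated HG3, with replicate 3 again highest.

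The heavy chains varied together across libraries, as did PSMB8 and PSMB9, whereas the transporter chains did not. Pearson correlations of log2 CPM over the 18 libraries, which share lines and replicate series and are given as a description, were 0.89 for HLA-B with HLA-C, 0.92 for HLA-B with HLA-E and 0.95 for HLA-C with HLA-E. After the mean of each group had been removed they were 0.91, 0.87 and 0.82. PSMB8 with PSMB9 gave 0.87 and, within groups, 0.70. TAP1 with TAP2 gave 0.19 and, within groups, 0.028. TAP1 with PSMB9, which face each other in the genome, gave 0.63 and 0.61, while TAP2 within groups went against HLA-B (-0.72), HLA-C (-0.70) and HLA-E (-0.70). NLRC5 over the 18 libraries gave 0.77 with HLA-C and 0.74 with HLA-E, and within groups 0.27 and 0.32. Within groups NLRC5 went against PSMB9 (-0.60), PSMB8 (-0.49), TAP1 (-0.33) and B2M (-0.12), and gave 0.27 with HLA-B and 0.059 with TAP2. Among genes outside the 9 with a mean of at least 5 CPM, the patterns nearest to B2M were PDCD7 (0.93), TAX1BP1 (0.92) and LANCL2 (0.88), and those nearest to TAP1 were BYSL (0.93), MAD2L1BP (0.93) and DHX16 (0.92). For PSMB9 they were CCDC32 (0.87), S1PR4 (0.83) and GID8 (0.82), and for NLRC5 CDK16 (0.93), TRIM39 (0.91) and ZNF331 (0.91), each a Pearson r over the 18 libraries.

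A list of 25 other genes of the pathway was read beside the 9. Between unstimulated PCL12 and HG3, 3 of 25 were called lower, 1 higher and 21 did not pass, where 4.57% of all tested genes were called lower and 4.87% higher, while the median of the 25 differences was 0.11, above the 0 of all genes. Lower in PCL12 were the non-classical heavy chain HLA-F (-1.58, adjusted p = 0.000395), TAPBP (-1.35, adjusted p = 0.000425), the tapasin that holds class I molecules at the transporter, and NFYA (-0.99, adjusted p = 0.0083), a subunit of the Y box factor NF-Y. HLA-G had -0.92, adjusted p = 0.0796. Higher was ERAP2 (2.36, adjusted p = 4.84e-07), an aminopeptidase that trims peptides in the endoplasmic reticulum. In single libraries ERAP2 measured 19.2, 26.4 and 23.1 CPM in HG3, 104, 89.7 and 96.2 CPM in MEC2 and 125, 89.4 and 137 CPM in PCL12, with HG3 below both others throughout. TAPBP measured 378, 579 and 505 CPM in HG3, 275, 296 and 229.8 CPM in MEC2 and 212, 188 and 176 CPM in PCL12, in which the lines followed the order of HLA-B without overlap. HLA-F measured 187, 216 and 189 CPM in HG3 and 48.1, 101 and 49.8 CPM in PCL12, and NFYA 77.5, 50.2 and 82.4 CPM and 27.2, 39.6 and 39.2 CPM. Without PCL12 replicates 2 and 3, HLA-F (-2.02, adjusted p = 0.00447) and ERAP2 (2.47, adjusted p = 5.09e-05) were still called, and TAPBP (-1.18, adjusted p = 0.142) and NFYA (-1.35, adjusted p = 0.063) were not.

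Between unstimulated MEC2 and HG3, 2 of the 25 were called higher, 2 lower and 21 did not pass, where 4.81% of all tested genes were called higher and 4.97% lower. Higher in MEC2 were ERAP2 (2.08, adjusted p = 2.75e-06) and PDIA3 (0.97, adjusted p = 0.0178), a thiol oxidoreductase of peptide loading. Lower were PSMB6 (-1.04, adjusted p = 0.00881) and TAPBP (-0.87, adjusted p = 0.0212). The interferon response factor IRF1 (0.16, adjusted p = 0.815), RFX5 (0.59, adjusted p = 0.136), PSMB5 (-0.31, adjusted p = 0.564), PSMB7 (-0.064, adjusted p = 0.989) and PSMB10 (0.18, adjusted p = 0.808) did not pass. Between PCL12 and MEC2, 1 of 25 was called, the non-classical heavy chain HLA-G (-1.43, adjusted p = 0.0165), lower in PCL12, against 0.524% of all genes. It measured 55.9, 49.8 and 36.3 CPM in MEC2 and 15.0, 22.1 and 15.7 CPM in PCL12, and was not called without PCL12 replicates 2 and 3 (-1.63, adjusted p = 0.0954). After CpG edgeR called none of the 25 in any line or in the mean over the lines. At an unadjusted P under 0.05 were TAPBP in MEC2 (log2 ratio 0.54) and, in the mean, CREB1 (0.35, adjusted p = 1), a factor of the X2 box. This is 1 of 25 in each, where 2.46% of all tested genes in MEC2 and 4.04% in the mean had such a P. CREB1 was higher after CpG in 9 of 9 pairs (exact sign-flip permutation test, two-sided, p = 0.00391, the smallest that 9 pairs allow, not adjusted for the 25 genes). RFXANK, an RFX protein (8 of 9 down), and PSMB7 (7 of 9 down) went the other way, each with permutation p = 0.0391. The share of all tested genes with 9 of 9 pairs in the same direction was not counted.

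**Figure D5:**
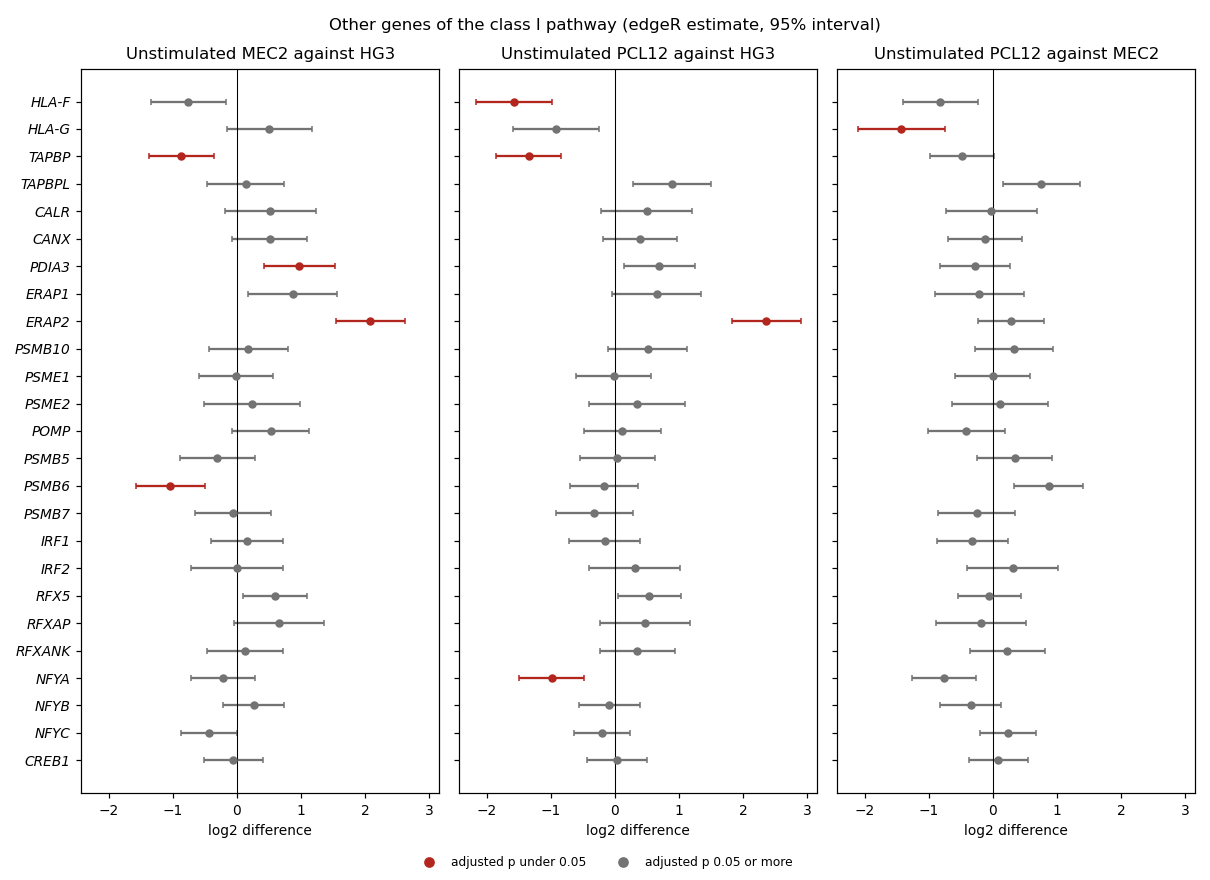
Log2 difference between unstimulated lines (horizontal axes) for the 25 other genes of the pathway (vertical axis), as edgeR estimates with 95% intervals; red points have an adjusted p under 0.05. ERAP2 lies right of 0 in both comparisons with HG3, and HLA-F, TAPBP and NFYA lie left of 0 in PCL12 against HG3.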

How the data were processed

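The authors deposited 1 table of raw counts per gene symbol for 18 libraries, made from trimmed single reads; the submitters' processing notes name FastQC, MultiQC, Trimmomatic, STAR and featureCounts and the build hg38. The strand setting, the annotation release and the treatment of multi-mapping and duplicate reads are not given in the sources used here, so PCR copies may be counted and counting precision is stated too favourably. The paper and the labels name different RNA kits, and the labels name a 3′ QuantSeq kit, so levels of different genes were not ranked, and count ratios of gene pairs were read only between lines.

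Genes with at least 10 counts over all libraries (31872) were tested with edgeR 4.0.16 in R 4.3.3: TMM factors, 1 fit of 6 groups, robust quasi-likelihood test, Benjamini-Hochberg adjustment over all genes. CPM uses the TMM factors. limma 3.58.1 (voom) and DESeq2 1.42.0, other scalings and filters, a replicate block and left-out libraries were alternatives. All count tests were run on simulated data with 200 changed genes first. Pair ratios used an offset of 0.1 CPM. Named were the 9 members, listed pathway genes (those called, at most 6 a comparison, and HLA-F, HLA-G, PSMB10, TAPBP, PSMB5, PSMB6, PSMB7, IRF1 and RFX5) and the 3 most correlated genes for each of 4 members. Pseudogenes were read as a check of shared reads, and the 45 MEC2 genes, CREB1, RFXANK, PSMB7 by pairs, TAPBP in MEC2 and the genes of count ratios were singled out after seeing the data. Some genes of these lists are not reported here. The members and lists were chosen with earlier results of these data known.

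The series text pairs samples by replicate number. Deviations from group means of same-numbered libraries correlated at 0.41, 0.39 and 0.64 for HG3, 0.31, 0.085 and 0.72 for MEC2 and 0.73, 0.63 and 0.60 for PCL12. Of these libraries, MEC2 replicate 1 correlated best with number 2 and MEC2 replicate 2 with number 1, and all others with their own number.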

Additional observations from a re-analysis of the deposited data

Results flagged for a closer look

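The pair ratios of HLA-E had opposite signs in HG3 and MEC2, although its CpG response passed the test in neither line. The ratios of MEC2 replicates 1 and 3 were small. HLA-E is named here for this pattern of signs, and the share of all tested genes with such a pattern was not counted. All 3 HG3 pairs had more HLA-E after CpG (log2 ratios of 0.063, 0.18 and 0.081) and all 3 MEC2 pairs less (-0.03, -0.26 and -0.031), which gave a difference of -0.22 between the responses (MEC2 minus HG3). The test of this difference did not pass (edgeR adjusted p = 1.00). In the unpaired fit without MEC2 CpG replicate 3 the difference was 0.027. That fit keeps the unstimulated library of the same number, and HLA-E was low in both libraries of this pair (333 CPM unstimulated and 326 CPM after CpG).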

How the results depend on the processing

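No setting run called a member for CpG or for a difference in CpG response. Of the counts of called members, unstimulated MEC2 against HG3 (0) became 1 with DESeq2, library totals or the replicate block and 3 without the mitochondria-rich libraries. Unstimulated PCL12 against HG3 (4) became 5 with DESeq2, filterByExpr, only the lines compared or the replicate block, 5 without the mitochondria-rich libraries and 3 with library totals. It ranged from 0 to 4 with 1 library left out, 0 without unstimulated PCL12 replicate 3 and 1 without unstimulated HG3 replicate 3. Unstimulated PCL12 against MEC2 (2) became 6 with DESeq2, 4 with no filter, 3 with limma-voom, 1 with library totals and 0 to 2 with 1 library left out (named beside the result). For both, the fits without PCL12 replicates 2 and 3, which leave 1 library, stand beside the results. For the CpG-stimulated lines, a comparison chosen after seeing the data, MEC2 against HG3 (0) became 2 with DESeq2, 1 with limma-voom, 1 without the mitochondria-rich libraries and 0 to 1 with 1 library left out (1 without HG3 replicate 1 or MEC2 replicate 1 or 2). PCL12 against HG3 (4) became 1 without PCL12 replicates 2 and 3, 3 with library totals and 5 with DESeq2, limma-voom, filterByExpr, only the lines compared or the replicate block. PCL12 against MEC2 (2) became 4 with DESeq2 or limma-voom or without the mitochondria-rich libraries, 3 with RLE scaling, no filter, only the lines compared or the block, 1 with library totals, 0 without PCL12 replicates 2 and 3, and 0 to 3 with 1 library left out (0 without PCL12 replicate 1, and 1 without MEC2 replicate 1 or PCL12 replicate 2 or 3).

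With the replicate number as a block, NLRC5 (-0.75) was also called between unstimulated PCL12 and HG3, giving 5 genes, PSMB9 (0.80) between MEC2 and HG3, and, between CpG-stimulated lines, NLRC5 against HG3 (-0.77, adjusted p = 0.0395) and HLA-E against MEC2 (-1.05, adjusted p = 0.0424). Other settings that also called NLRC5 or HLA-E stand beside those results. The block changed no other call of a member.

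Directions turned only for differences that were not called. With other settings, NLRC5 between unstimulated MEC2 and HG3 was -0.024 (DESeq2 and RLE scaling), -0.0065 (no mitochondrial genes), -0.00093 (no filter) and -0.010 (only the lines compared), and with library totals HLA-C was 0.051, TAP1 0.0073 and, between PCL12 and HG3, TAP2 0.11. In the mean CpG response, TAP2 was -0.000325 (limma-voom) and -0.051 (without the mitochondria-rich libraries), and with no filter HLA-C was 0.00089 and NLRC5 0.011. Without the mitochondria-rich libraries, NLRC5 after CpG in MEC2 was -0.19, and between CpG-stimulated MEC2 and HG3 TAP1 was 0.13 and NLRC5 -0.046. With 1 library left out, the mean CpG response ranged from -0.084 to 0.057 for HLA-C, -0.15 to 0.024 for HLA-E, -0.028 to 0.072 for B2M, -0.027 to 0.11 for TAP1, -0.075 to 0.12 for TAP2 and -0.15 to 0.069 for NLRC5. NLRC5 after CpG in MEC2 ranged from -0.19 to 0.49, and the HLA-E response difference from -0.49 to 0.027. Between unstimulated lines, HLA-C ranged from -0.17 to 0.14, HLA-E from -0.31 to 0.12 and NLRC5 from -0.077 to 0.12 (MEC2 minus HG3), and TAP2 from -0.22 to 0.23 (PCL12 minus HG3). Between CpG-stimulated lines, TAP1 ranged from -0.26 to 0.12, NLRC5 from -0.047 to 0.64 (MEC2 minus HG3) and TAP2 from -0.023 to 0.44 (PCL12 minus HG3).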

Other observations

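Between CpG-stimulated MEC2 and HG3, ERAP2 gave 1.95, adjusted p = 6.33e-06 and PSMB6 -1.09, adjusted p = 0.00629, and between PCL12 and HG3 ERAP2 gave 2.32, adjusted p = 5.91e-07 (edgeR). HLA-F was called lower in CpG-stimulated PCL12 than in both HG3 (-1.66, adjusted p = 0.000223) and MEC2 (-1.21, adjusted p = 0.0195), and so was HLA-G (-1.22, adjusted p = 0.0162 and -1.32, adjusted p = 0.031). Without PCL12 replicates 2 and 3, ERAP2 against HG3 (2.44, adjusted p = 5.98e-05), HLA-F against HG3 (-2.02, adjusted p = 0.00447) and HLA-G against HG3 (-2.11, adjusted p = 0.0111) and MEC2 (-2.21, adjusted p = 0.0177) were still called, and HLA-F against MEC2 was not (-1.57, adjusted p = 0.0561). The pseudogene HLA-J measured 1.19, 3.34 and 4.11 CPM in CpG-stimulated PCL12 replicates 1, 2 and 3, with replicate 1 lowest, against 16.4, 20.6 and 17.6 CPM in HG3.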
